A study of Danio rerio with 4 samples.

Results

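The genes described here are 10 digestive enzyme genes of the exocrine pancreas that were detected in zebrafish liver libraries. They were chosen by symbol, as trypsin genes (*prss1*, *prss59.1* and *prss59.2*), a chymotrypsin gene (*ctrb1*), elastase genes (*ela2*, *ela2l* and *ela3l*), carboxypeptidase A genes (*cpa4* and *cpa5*) and a lipase gene (*cel.1*). All 10 were among the 16405 genes listed, and all 10 passed a filter of a mean of at least 10 TMM (a scaled read count, explained below) that 3349 genes passed.

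The acinar cells of the exocrine pancreas make digestive enzymes, pack most of the proteases as inactive zymogens into secretory granules, and release them through ducts into the gut. Trypsin, once cleaved from its zymogen in the gut, activates the zymogens of chymotrypsin, elastases and carboxypeptidases. In zebrafish larvae the exocrine pancreas lies beside the gut and close to the liver, and these genes are used as markers of acinar cells, not of hepatocytes.

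RNA came from dissected whole livers of fasted larvae at 6 days post-fertilization (dpf), in 2 pex5 KO libraries (replicates 1 and 2) and 2 WT libraries (replicates 1 and 4). The pex5 KO larvae (pex5-/-) are homozygous for a small CRISPR-Cas9 deletion in the reading frame of *pex5*, the receptor that brings matrix proteins into peroxisomes. The line descends from a single founder, and early embryos still hold pex5 products supplied by the heterozygous mother. The level of *pex5* itself was not analysed here. How many livers made up a library was not given in the sources used here. CEL-Seq2 reads each polyadenylated RNA near its 3′ end and marks every captured molecule, so that PCR copies count once. Levels were therefore not divided by gene length.

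The libraries held from 1217737 to 1425834 deduplicated reads, and 1 read was worth 0.691 to 0.785 TMM, the count scaled by trimmed mean of M-values. The 19 hepatocyte marker rows all passed the filter and took 2.72% and 2.60% of the reads in the pex5 KO libraries, against 2.79% and 2.65% in the WT libraries. Single markers varied more than this sum: *cp* had 430 and 487 reads in pex5 KO, against 930 and 298 in WT. *fabp10a*, a liver fatty acid binding protein gene that defines larval hepatocytes, stood at 3948 and 4873 TMM in pex5 KO, against 4317 and 6237 TMM in WT. Among the 19 rows, a second row named *hp* (ENSDARG00000051890) had 2 and 1 reads in pex5 KO, against 279 and 0 in WT. Apart from that row, the labelled tissue carried its defining markers in every library.

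Summed over the 10 enzyme genes, the level was 2611 and 1732 TMM in pex5 KO livers, against 1507 and 3877 TMM in WT livers. WT replicate 4 was the highest library and WT replicate 1 the lowest, with both pex5 KO libraries between them, so the genotypes overlapped. These sums rested on 3474 and 2506 reads in pex5 KO and on 2123 and 4937 reads in WT. As a share of the library, the enzyme genes took 0.247% (95% Wilson interval 0.239 to 0.256) of the reads in pex5 KO replicate 1 and 0.176% (0.169 to 0.183) in pex5 KO replicate 2. The share was 0.158% (0.152 to 0.165) in WT replicate 1 and 0.405% (0.394 to 0.417) in WT replicate 4. The 4 intervals do not meet, and they cover counting error only.

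The mean sum was 2172 ± 621 TMM in pex5 KO and 2692 ± 1676 TMM in WT (SD, n = 2 each), a log2 ratio of -0.31. The exact two-sided permutation test over the libraries gave p = 1, where 2 libraries against 2 cannot give less than 0.333. Without WT replicate 4 the log2 ratio was 0.53, and without WT replicate 1 it was -0.84, and the sign thus rested on WT replicate 4. It was -0.64 without pex5 KO replicate 1 and -0.044 without pex5 KO replicate 2. With the WT libraries on either side of both pex5 KO libraries, the ratio does not show a loss in pex5 KO. In such bulk samples, different acinar cell numbers, carried-over pancreas included, cannot be told apart from different enzyme RNA per cell.

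**Figure D1:**
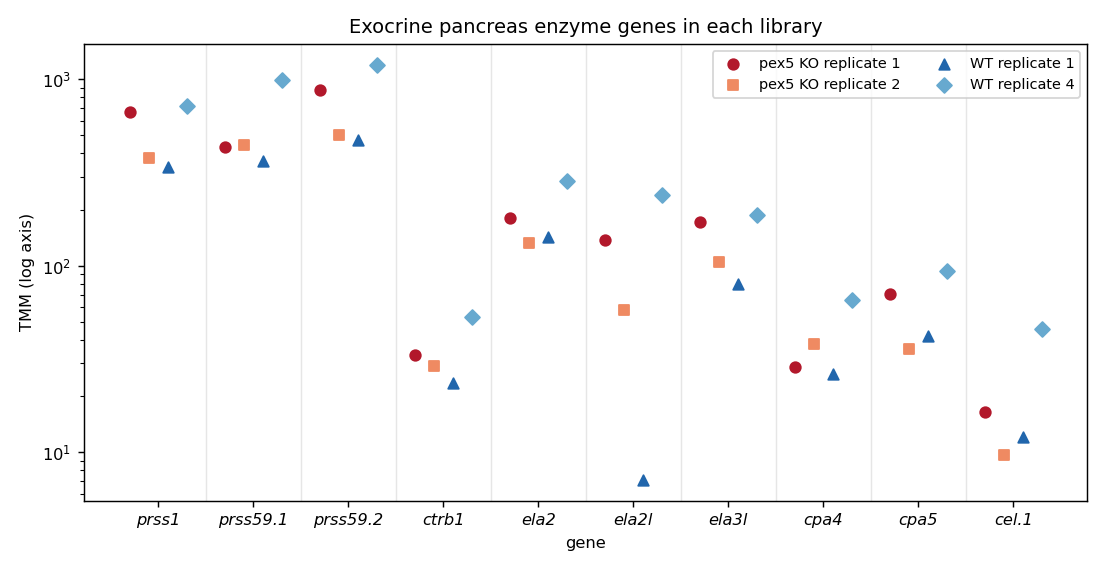
Level of each of the 10 enzyme genes in TMM (log axis) in each library, with pex5 KO replicates 1 and 2 to the left of WT replicates 1 and 4 within each gene. Each point is 1 library. WT replicate 4 is the highest point for all 10 genes, and the point of *ela2l* in WT replicate 1, at 7.10 TMM, lies far below its other 3.

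Trypsins carried most of the enzyme reads. *prss59.2* (ENSDARG00000073742, chromosome 16 of GRCz11), a trypsin gene and the most abundant of the 10, stood at 876 and 502 TMM in pex5 KO, against 473 and 1196 TMM in WT. *prss59.1* (ENSDARG00000079274, chromosome 16), its close copy, stood at 434 and 443 TMM in pex5 KO, against 363 and 992 TMM in WT. In both genes the pex5 KO libraries fell between the WT libraries. *prss1* (ENSDARG00000042993, chromosome 16), another trypsin gene, had 664 and 380.2 TMM in pex5 KO, against 337 and 720.1 TMM in WT. WT replicate 4 was again the highest and WT replicate 1 the lowest. Between genotypes the limma log2 differences were 0.028 for *prss1* (SE 0.47), -0.45 for *prss59.1* (SE 0.50) and -0.18 for *prss59.2* (SE 0.53), each smaller than its error. Under a rescaling of the libraries to the same total, the value of *prss1* was -0.068.

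The genes *prss59.1* and *prss59.2* are next to each other in the RefSeq gene order of GRCz12tu, with 42 coding genes between them and *prss1*. Reads from near copies may be counted for either gene, so the split between them is uncertain. How reads that fit both copies were handled was not examined, so their sum may be affected as well. Together the 3 trypsin genes summed to 1974 and 1325 TMM in pex5 KO, against 1173 and 2908 TMM in WT.

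*ctrb1* (ENSDARG00000090428, chromosome 7) encodes chymotrypsinogen B, the zymogen of chymotrypsin. It stood at 33.1 and 29.0 TMM in pex5 KO, against 23.4 and 53.4 TMM in WT, from 33 to 68 reads a library. The pex5 KO libraries lay close together and between the WT libraries. The limma log2 difference was -0.19 (SE 0.45).

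Elastases are serine proteases. *ela2* (ENSDARG00000056744, chromosome 8) stood at 180.4 and 132 TMM in pex5 KO, against 143 and 286 TMM in WT, and was lowest in pex5 KO replicate 2. *ela3l* (ENSDARG00000007276, chromosome 5) stood at 171 and 104 TMM in pex5 KO, against 79.5 and 187 TMM in WT, with WT replicate 1 the lowest. The limma log2 differences were -0.39 for *ela2* (SE 0.41) and 0.13 for *ela3l* (SE 0.50).

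*ela2l* (ENSDARG00000056765, chromosome 8), the neighbour of *ela2* in the RefSeq order, varied most among the 10 genes. It had 137.5 and 58.1 TMM in pex5 KO, against 7.10 and 239 TMM in WT. WT replicate 1 stood apart: its value came from 10 reads, against 84 to 304 reads in the other libraries, and WT replicate 4 was 33.6-fold higher. The mean was 97.8 ± 56.2 TMM in pex5 KO and 123 ± 164 TMM in WT (SD, n = 2 each), so the mean level was lower in pex5 KO. On the log2 scale the limma difference was 1.04 (SE 1.595), of the opposite sign, because a low value weighs more there. Without WT replicate 1 the log2 difference was -1.41, and without WT replicate 4 it was 3.48.

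Carboxypeptidases A remove residues from the carboxyl end of peptides. The symbols *cpa4* and *cpa5* are those of the deposited table, and another table of gene names gives both IDs other carboxypeptidase A symbols, so which copy each is remains uncertain. *cpa4* (ENSDARG00000043722, chromosome 25) stood at 28.6 and 38.0 TMM in pex5 KO, against 26.3 and 65.2 TMM in WT. *cpa5* (ENSDARG00000021339, chromosome 25) stood at 70.6 and 35.9 TMM in pex5 KO, against 41.9 and 93.4 TMM in WT. *cpa4* was lowest in WT replicate 1 and *cpa5* in pex5 KO replicate 2. The limma log2 differences were -0.32 (SE 0.49) for *cpa4* and -0.31 (SE 0.53) for *cpa5*.

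*cel.1* (ENSDARG00000017490, chromosome 21) encodes carboxyl ester lipase, which cleaves fats and cholesterol esters once bile salts activate it. It was the least abundant of the 10 genes, at 16.5 and 9.68 TMM in pex5 KO, against 12.1 and 45.5 TMM in WT, or 14 to 58 reads. WT replicate 4 lay above the other 3 libraries, which were close to each other. The limma log2 difference was -0.85 (SE 0.69), and with WT replicate 4 left out it was 0.067.

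Between genotypes, 0 of the 10 genes were called at an adjusted p under 0.05 (limma, Benjamini-Hochberg over 3349 genes), where 0% of all genes tested were called. The adjusted p was 1.00 for each of the 10. Voom weights on the recovered reads likewise gave 0 calls, among the 10 and among all genes, with 0 of the 10 and 94 of all genes at an unadjusted p under 0.05. At an unadjusted limma p under 0.05 there were 0 of the 10 genes and 3.61% of all genes, and the unadjusted p of the 10 ran from 0.271 to 0.955. With WT replicate 1 left out, all 10 log2 differences were below zero, and with WT replicate 4 left out all 10 were above zero. Each of these fits had a single WT library, so the WT spread could not be estimated. With all libraries, the log2 difference was above zero for 3 genes (*prss1*, *ela2l* and *ela3l*) and below zero for 7. Its median was -0.25 over the 10 and 0.0043 over all genes tested. The genotypes overlapped in 10 of 10 genes, where 69.6% of all genes overlapped.

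These tests leave wide limits. The 95% interval of the difference ran from -1.45 to 0.67 for *ela2*, the gene with the lowest SE, and from -1.53 to 1.16 for *prss59.2*. For *cel.1* it ran from -2.61 to 0.91, and for *ela2l* from -3.03 to 5.11. The SE was from 0.41 to 0.69 for 9 genes and 1.595 for *ela2l*, beside a median of 0.38 over all genes tested.

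**Figure D2:**
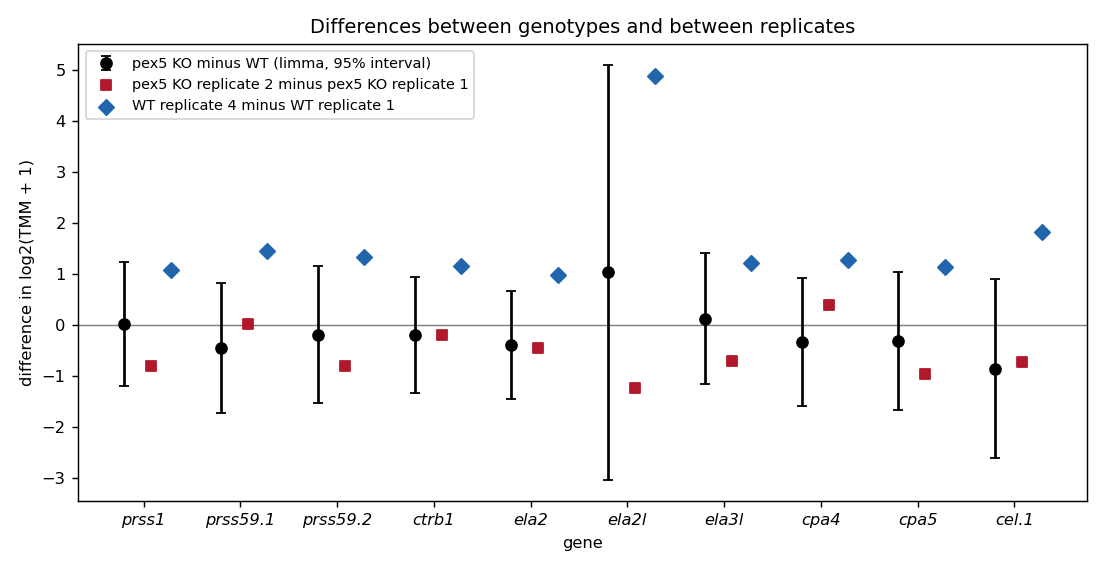
Differences in log2(TMM + 1) for each enzyme gene: pex5 KO minus WT from limma with its 95% interval (black), pex5 KO replicate 2 minus pex5 KO replicate 1 (red) and WT replicate 4 minus WT replicate 1 (blue). All 10 black intervals include zero, and all 10 blue points lie above zero, 9 of them between 0.99 and 1.83.

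The larger differences lay within the WT group. WT replicate 4 exceeded WT replicate 1 for 10 of 10 genes, where 54.4% of all genes tested did so. The excess was at least 2-fold on the log2(TMM + 1) scale for 9 of 10, where 8.57% of all genes were that far apart. The exception, *ela2*, had a log2 difference of 0.99. In TMM the fold ran from 1.99 to 3.78 for the 9 genes other than *ela2l*. With 1 library on each side, these differences have no test, and 10 markers of the same cell type are not 10 independent observations.

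Between the pex5 KO libraries the differences were smaller and less uniform. Replicate 1 exceeded replicate 2 for 8 of 10 genes, where 51.8% of all genes did so, and by at least 2-fold for 1 (*ela2l*, 2.37-fold in TMM), where 5.32% did so. *cpa4* ran the other way, at 28.6 TMM in replicate 1 and 38.0 TMM in replicate 2, and *prss59.1* was nearly level. The summed level differed 1.51-fold between the pex5 KO libraries and 2.57-fold between the WT libraries. For 10 of 10 genes the difference between the WT libraries was larger in size than that between the genotypes, and for 7 of 10 so was that between the pex5 KO libraries.

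Ordered by level, 10 of 10 genes were highest in WT replicate 4 and 7 of them were lowest in WT replicate 1, an arrangement found in 11.2% of all genes tested. The full order of WT replicate 4, pex5 KO replicate 1, pex5 KO replicate 2 and WT replicate 1 held for 5 genes, where 6.45% of all genes had it. The mean centred log2 level of the 10 genes was 0.20 and -0.35 in pex5 KO, against -0.74 and 0.89 in WT. Each gene has equal weight in this mean, so *ela2l*, with 10 reads in WT replicate 1, lowers it in that library. *prss59.2* followed this mean profile most closely, with a root mean square distance of 0.14 over the 4 libraries, and *ela2l* least, with 1.32. The other 8 lay between 0.21 and 0.37.

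Within a library, most ratios between enzyme genes were less variable than the levels. *prss1* had 75.7 and 75.8 reads per 100 *prss59.2* reads in pex5 KO, against 71.2 and 60.2 in WT. In the neighbouring pairs, single libraries stood out. *ela2l* had 76.2 reads (95% Wilson interval 62.9 to 92.4) and 44.0 (34.1 to 56.8) per 100 *ela2* reads in pex5 KO, against 4.95 (2.65 to 9.25) and 83.5 (71.7 to 97.2) in WT. The low value of WT replicate 1 is thus a low *ela2l* level relative to its neighbour as well. *prss59.1* had 49.5 reads (44.8 to 54.7) and 88.3 (79.4 to 98.2) per 100 *prss59.2* reads in pex5 KO, against 76.6 (68.3 to 86.0) and 82.9 (77.0 to 89.3) in WT. Here pex5 KO replicate 1 was the low library, and *prss59.1* took 16.6% of its enzyme reads, against 24.1% to 25.6% elsewhere. *cpa4* had 40.4 reads (27.8 to 58.8) and 106 (72.6 to 154) per 100 *cpa5* reads in pex5 KO, against 62.7 (41.7 to 94.3) and 69.7 (52.7 to 92.2) in WT. The pex5 KO libraries lay on either side of the WT libraries, with intervals that overlap theirs. How reads were shared between neighbouring copies was not tested.

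**Figure D3:**
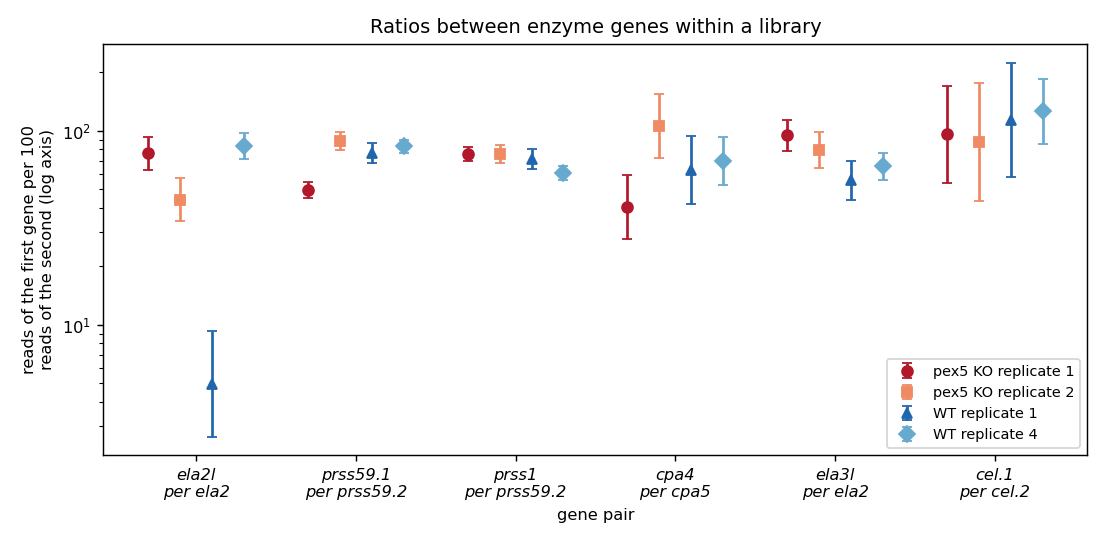
Reads of the first gene per 100 reads of the second gene (log axis) for 6 pairs of enzyme genes, in pex5 KO replicates 1 and 2 and WT replicates 1 and 4, with 95% Wilson intervals as bars. The *ela2l* to *ela2* ratio of WT replicate 1, at 4.95, and the *prss59.1* to *prss59.2* ratio of pex5 KO replicate 1, at 49.5, lie apart from the other libraries.

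Of 34 other digestive enzyme genes looked for, 21 rows were listed, with *cela1.5* naming more than 1 row. Of these rows, 19 had reads and 7 passed the filter, and these 7 were highest in the same library as the 10. They were *amy2a* (pancreatic amylase), *cel.2* (a second carboxyl ester lipase, next to *cel.1*), *ctrl* (chymotrypsin-like), *cela1.6* (elastase), *pla2g1b* (pancreatic phospholipase A2), *c6ast4* (an astacin metalloprotease) and *rnasel3* (a secreted ribonuclease). Of these, 7 were highest in WT replicate 4, 6 were lowest in WT replicate 1, and 0 of 7 were called between genotypes (limma, adjusted over all genes). Their log2 difference was above zero in 2 and below zero in 5, with a median of -0.11.

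*amy2a* stood at 114 and 66.4 TMM in pex5 KO, against 63.2 and 139 TMM in WT. *cela1.6*, the most abundant of the serine proteases among the 7, stood at 317 and 194 TMM in pex5 KO, against 207 and 415 TMM in WT. Its ratio to *ela2* was 176 and 147 reads per 100 in pex5 KO, against 145 and 145 in WT, without the gap seen for *ela2l*. *pla2g1b* was the most even, at 81.2 and 81.6 TMM in pex5 KO, against 71.0 and 108 TMM in WT. *rnasel3* had its second highest value in pex5 KO replicate 2, at 295 and 416 TMM in pex5 KO, against 158 and 441 TMM in WT. A carboxypeptidase gene listed as *cpa1* had 2 and 1 reads in pex5 KO and 0 in both WT libraries. A count of 0 allows up to 3 reads.

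Genes for the secretory machinery and transcription factors of acinar cells had fewer reads than most of the enzymes. Of 18 looked for, 11 were listed and 2 passed the filter: *sycn.2*, a gene for syncollin of the zymogen granule, and *nr5a2*, a nuclear receptor that hepatocytes also express. *sycn.2* stood at 30.1 and 27.0 TMM in pex5 KO, against 19.9 and 28.3 TMM in WT, and *nr5a2* at 19.5 and 22.8 TMM in pex5 KO, against 17.7 and 22.8 TMM in WT. *ptf1a* and *rbpjl*, which form the factor that drives acinar enzyme genes, were all but undetected: *ptf1a* had 1 read in WT replicate 1 and 0 elsewhere, and *rbpjl* had 0 in all 4 libraries. Below the filter, *pdia2*, a pancreatic protein disulfide isomerase gene, had 12 and 11 reads in pex5 KO, against 8 and 19 in WT. This is the order of the enzyme sum, but the pex5 KO counts are too close to rank. *gata6*, a transcription factor gene, had 9 and 13 reads in pex5 KO, against 17 and 14 in WT. The 11 genes summed to 100 and 103 reads in pex5 KO, against 82 and 107 in WT.

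Markers of other cells near the liver differed between libraries too. Skin keratin and related genes (9 listed, 4 passed the filter) took 0.0354% and 0.0219% of reads in pex5 KO, against 0.0150% and 0.0733% in WT, the order of libraries that the enzyme sum had. Intestinal genes (17 listed, 7 passed) took 0.135% and 0.0122% in pex5 KO, against 0.00976% and 0.0289% in WT, with pex5 KO replicate 1 far above the rest. A single gene of this list, *rbp2a*, had 274 and 126 of the 1899 and 174 intestinal reads in pex5 KO. In WT it had 89 and 155 of 131 and 352. Heart genes (9 listed, 4 passed) summed to 72 and 110 reads in pex5 KO, against 268 and 514 in WT. Of these reads, the titin gene *ttn.2* had 47 and 59 in pex5 KO, against 21 and 231 in WT. Red blood cell genes (11 rows listed, 8 passed) summed to 2385 and 2528 reads in pex5 KO, against 1408 and 614 in WT. Among those rows, *hbae1.3* names more than 1. Of the defining gut markers, the fatty acid binding protein gene *fabp2* had 12 and 1 reads in pex5 KO, against 1 and 6 in WT. *vil1* had 276 and 2 reads in pex5 KO, against 4 and 19 in WT, and *cdh17* 20 and 3, against 2 and 4. Among skin genes, the basal keratin gene *krt5* had from 3 to 4 reads in a library. The keratin gene *krtt1c19e* was less even, with 63 and 43 reads in pex5 KO, against 19 and 129 in WT. What part pancreas, skin or gut tissue carried over with the livers has in the enzyme levels was not tested.

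**Figure D4:**
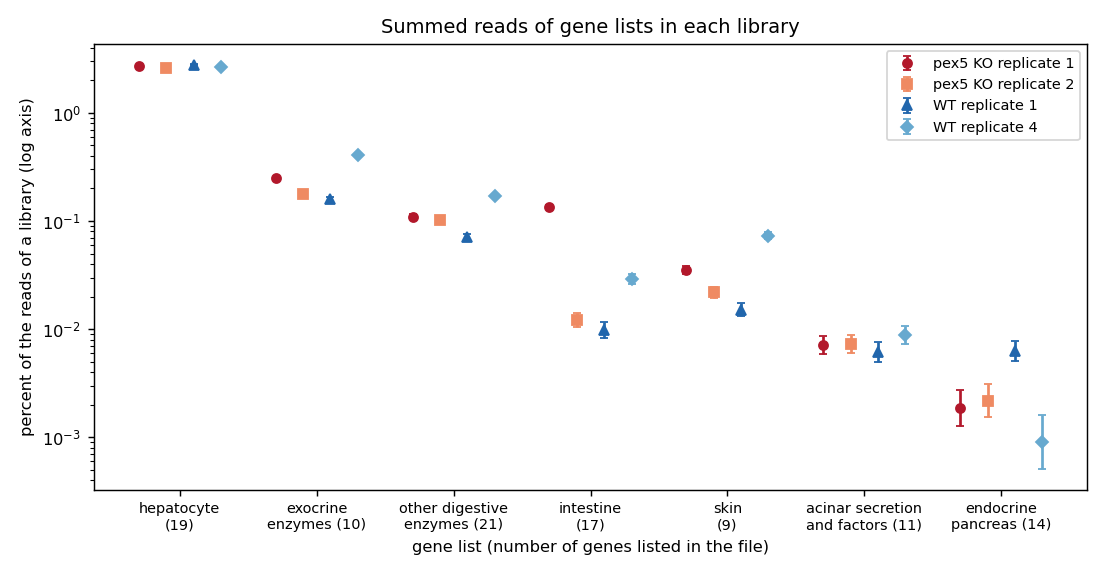
Share of the reads of each library taken by each gene list (percent, log axis, 95% Wilson intervals), in pex5 KO replicates 1 and 2 and WT replicates 1 and 4. The summed hepatocyte markers are level at 2.60% to 2.79%, though single markers vary more, and the exocrine enzymes run from 0.158% to 0.405%. Endocrine pancreas genes, with 11 to 84 reads a library, are highest in WT replicate 1, where the enzymes are lowest. Of those 84 reads, 41 are from *sst1.1*, and *ins* has 0 reads in every library.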

How the data were processed

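Libraries were made from total RNA of fasted livers with CEL-Seq2, 1 per sample. The authors extracted UMIs with UMI-tools 1.1.1, trimmed reads with Trim Galore 0.6.7, mapped them with HISAT2 2.2.1 to GRCz11, counted them per gene with featureCounts 2.0.1, removed UMI duplicates, scaled counts by TMM and deposited log2(TMM + 1) for 16405 genes. The release of the annotation is not given in the sources used here. Undoing the logarithm gave whole reads for every gene within 0.01 of a read. There were 0 columns of other samples.

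Genotypes were compared with limma 3.58.1 (lmFit, eBayes with a trend) in R 4.3.3 on the deposited log2 values of the 3349 genes averaging 10 TMM or more. P-values were adjusted by Benjamini-Hochberg over these genes and called under 0.05. Sums were compared by an exact permutation test, and read shares got 95% Wilson intervals. On this scale the pseudocount of 1 shrinks fold changes of low genes. The other steps ran in Python 3.11.15 with scipy 1.17.1, pandas 2.3.3, matplotlib 3.10.9 and numpy 2.4.6.

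The named genes are the 10 enzyme genes, the genes of the 2 further pancreas lists (other digestive enzymes, acinar secretion and factors) that passed this filter, and the 10 other genes nearest in profile. Genes named outside this rule were chosen after their values were seen. Members and lists (also endocrine pancreas, intestine, hepatocyte, heart, erythrocyte and skin) were chosen with earlier results of these data known. Of the 10 genes, 9 matched the RefSeq table of GRCz12tu by symbol (not *ctrb1*), and it served only for gene order. No sequence was used. Nothing states that the libraries came from separate pools of animals, so p-values measure only the spread between these libraries. Alternatives covered the pseudocount, filter, scaling, voom weights, the summed genes and each library left out.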

Additional observations from a re-analysis of the deposited data

How the results depend on the processing

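With each library left out in turn, 14 of 40 differences of single genes reversed sign. On the log2 scale these ran from -0.52 to 0.57 for *prss1*, -1.18 to 0.27 for *prss59.1*, -0.85 to 0.49 for *prss59.2*, -0.77 to 0.39 for *ctrb1* and -0.88 to 0.11 for *ela2*. They ran from -1.41 to 3.48 for *ela2l*, -0.48 to 0.74 for *ela3l*, -0.96 to 0.32 for *cpa4*, -0.88 to 0.26 for *cpa5* and -1.77 to 0.067 for *cel.1*. The lone library was assumed to vary like those of the other genotype. All 10 genes were lower in pex5 KO without WT replicate 1 and all 10 higher without WT replicate 4. Genes without overlap numbered from 0 to 10 (0 with all libraries). Without WT replicate 1, all 10 lay below WT, where 34.7% of all genes did. Since WT replicate 4 was the highest library for each gene, that count of 10 follows from the order already given. Without WT replicate 4, 7 lay above WT, where 37.1% did, and without pex5 KO replicate 1, 3 lay below, where 29.3% did. These counts follow from the order too, as 7 genes were lowest in WT replicate 1 and 3 in pex5 KO replicate 2. The log2 ratio of the sums ran from -0.84 to 0.53. Calls over all genes ran from 0 to 12 (12 without WT replicate 1, 3 without WT replicate 4), and 0 of the 10 enzyme genes were called in any of these. Among the 70 other settings of single genes, 2 reversed: *prss1* was -0.068 when libraries were rescaled to the same total and -0.069 when they were rescaled by the total outside the 10 genes. The median difference of all genes was then -0.088 and -0.089, against 0.0043 before. With all 4 libraries, calls over all genes were 0 in each alternative. Alternatives for the sum without *ela2l* (-0.31) and for *prss59.1* with *prss59.2* alone (-0.42) were chosen after seeing the data. No paired analysis was made, because the sample labels state no pairing of libraries between the genotypes. With 10 reads for *ela2l* in WT replicate 1 and 14 for *cel.1* in pex5 KO replicate 2, counting error limits those values most.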

Other observations

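The summed reads of endocrine pancreas genes ran opposite to the enzyme sum in the WT libraries. Islets of the endocrine pancreas are embedded in the exocrine tissue. Of 18 looked for, 14 were listed, 12 had reads and 1 passed the filter. They summed to 26 and 31 reads in pex5 KO, against 84 and 11 reads in WT, so that WT replicate 1 was highest where the enzyme sum was lowest. *sst1.1*, a somatostatin gene and the 1 that passed, had 3 and 16 reads in pex5 KO, against 41 and 3 in WT, so it held 41 of the 84 reads of WT replicate 1. The insulin gene *ins* had 0 reads in all 4 libraries, and the hormone genes *insb*, *gcga*, *gcgb* and *sst2* had from 0 to 2. A further somatostatin gene, *sst1.2*, had 1 and 0 reads in pex5 KO, against 5 and 0 in WT. Whether the summed reads came from islets was not tested. *neurod1*, an endocrine transcription factor gene chosen after its values were seen, had 8 and 11 reads in pex5 KO, against 20 and 1 in WT. *nkx2.2a*, a second such gene, had 1 and 0 reads in pex5 KO, against 10 and 0 in WT. *pax6b*, another, was highest in WT replicate 4, with 3 and 3 reads in pex5 KO, against 5 and 7 in WT.

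The 10 genes outside the lists nearest in profile to the enzyme mean were *rsl1d1*, *serf2*, *si:dkey-87o1.2*, *col1a1b*, *nr1h4*, *pof1b*, *UTP14C*, *si:ch211-266g18.10*, *ahnak* and *usp10*, with root mean square distances from 0.05 to 0.14 over 4 libraries and from 6 to 131 reads in a library. Of 3287 genes compared, 58 were at most as far from that profile as the median enzyme gene (0.25). Because that profile includes *ela2l*, its difference between the WT libraries is wider than that of most of the enzyme genes.

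Further genes that follow were chosen after their values were seen. *krt91*, the most abundant skin list gene, had 386 and 229 of the 498 and 312 skin list reads in pex5 KO. In WT it had 163 and 639 of 202 and 893. Its order, shared with the enzyme sum, is thus largely that of the skin sum given above. *chia.1*, an acidic chitinase gene of the gut list, had 558 and 6 reads in pex5 KO, against 7 and 82 in WT. A row named *hp* (haptoglobin; ENSDARG00000051890), separate from the abundant *hp* row, had 2 and 1 reads in pex5 KO, against 279 and 0 in WT, so that it stood out in WT replicate 1, the library in which *ela2l* was low.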
